A study of Homo sapiens with 6 samples.

Results

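The first 30 Mb of chromosome 1, the outer end of its short arm (1p), were examined in ATAC-seq peak lists from neuroblastoma cells. Members were all peaks that lie on chromosome 1 and end at or before position 30000000 (hg38). This rule gave 34528 of the 1044250 peaks in 6 lists. The 6 lists held 5989 and 4372 member peaks in the naïve, 10295 and 9346 in the R1 and 2121 and 2405 in the R2 libraries. These came from lists of 154926, 115694, 340558, 292030, 67558 and 73484 peaks in the same order. The limit is a position and not a measured value. At the limit, the last peak inside and the first peak outside both ranked at percentile 52.1 of the list in naïve replicate 1, and at 68.5 and 75.4 in R1 replicate 1.

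All cells were of SK-N-AS, an established human neuroblastoma line, grown as xenografts in mice and returned to culture. Naïve cells came from tumours of mice given vehicle. R1 and R2 cells came from tumours that had relapsed on indisulam, a sulfonamide that links the splicing factor RBM39 to a ubiquitin ligase, and were taken on the second relapse, during the third cycle of the drug. The cultures themselves received no drug. Each of the 3 cell types had 2 libraries of 100000 cells. R1 and R2 are a single resistant line each, and all 3 share the SK-N-AS genome and passage through a mouse. No label tells if the 2 libraries of a line were separate cultures, so p-values measure the spread between these libraries, which may be technical. In bulk cells, fewer cells with an open site and less opening per cell cannot be told apart.

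Loss of the end of 1p is a common chromosomal change in neuroblastoma and marks tumours with poor outcome. The lost stretch is gene-rich, and several of its genes, among them the chromatin remodeller CHD5, the transcription factors CAMTA1 and CASZ1, the kinesin KIF1B and the chromatin subunit ARID1A, have been proposed as tumour suppressors. ATAC-seq marks DNA that the transposase Tn5 can reach, which is mostly promoters and enhancers. A peak score depends on copy number as well as on opening, and copy number was not measured here.

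The libraries differed in depth and in peak number. The background rate recovered from the scores was 2.29 and 1.35 tags in the naïve, 7.94 and 5.43 in the R1 and 0.850 and 0.899 in the R2 libraries. For this reason, scores were compared as percentile ranks within a library. Promoter peaks, meaning peaks within 1000 bp of the start, were found in all 6 libraries for 6 of 8 adrenergic neuroblastoma markers and for 7 of 9 mesenchymal markers. The adrenergic regulator PHOX2A had one in 5 libraries. The blood markers PTPRC and CD3E had none in any library. No endothelial or epithelial marker (2 each) had a peak in all 6 libraries, but each had one in 3 or 4.

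The DNA under some summits is given here as letters only, and binding was not measured. The first 4 sequences below, each of 101 bases of the hg38 forward strand around a summit, belong to regions that ranked lower in R1 than in naïve cells. The next 2 belong to peaks over repeated or copied DNA. Capitals mark TGANTCA, the letters bound by AP-1 (dimers of JUN and FOS proteins), in the EPHB2, DHRS3 and TNFRSF1B sequences, the CTCF core letters AGGNGGC in the ECE1 sequence, and the repeat unit GGAAT in the satellite-like summit.
EPHB2 intron, chr1:22832156-22832256: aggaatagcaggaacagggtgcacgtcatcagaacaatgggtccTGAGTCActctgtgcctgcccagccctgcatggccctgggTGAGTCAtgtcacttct
DHRS3 intron, chr1:12604441-12604541: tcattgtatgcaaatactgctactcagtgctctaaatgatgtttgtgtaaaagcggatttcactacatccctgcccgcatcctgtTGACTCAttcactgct
upstream of TNFRSF1B, chr1:12161918-12162018: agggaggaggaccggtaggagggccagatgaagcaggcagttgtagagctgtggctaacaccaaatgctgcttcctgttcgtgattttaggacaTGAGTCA
upstream of ECE1, chr1:21324672-21324772: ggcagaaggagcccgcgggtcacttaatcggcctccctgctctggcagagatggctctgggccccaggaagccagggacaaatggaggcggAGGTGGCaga
satellite-like, LINC01409 intron, chr1:791515-791615: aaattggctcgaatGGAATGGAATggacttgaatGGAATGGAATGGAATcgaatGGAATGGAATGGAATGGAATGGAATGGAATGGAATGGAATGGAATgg
mitochondrial-like, chr1:633923-634023: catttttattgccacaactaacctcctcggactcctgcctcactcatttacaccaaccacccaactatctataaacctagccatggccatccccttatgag
The EPHB2 summit held 2 AP-1 matches and the DHRS3 and TNFRSF1B summits 1 each. The satellite-like summit held 14 GGAAT units. The mitochondrial-like summit has no capitals because all 101 bases are identical to mitochondrial DNA. Among 14400 regions with matched summits in the genome, the same 101-base windows held TGANTCA in 5.73%, AGGNGGC in 21.1% and GGAAT in 12.1%, on either strand.

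Peaks of the arm took a larger share of the list in naïve cells than in resistant cells. The share was 3.87% and 3.78% in the naïve, 3.02% and 3.20% in the R1 and 3.14% and 3.27% in the R2 libraries. Both naïve values lay above all 4 resistant values. The means were 3.82% ± 0.0614 (SD, n = 2) and 3.16% ± 0.106 (SD, n = 4), a difference of -0.663 percentage points (exact two-sided permutation p = 0.133, the smallest that 15 splits of 2 against 4 libraries allow). Among the strongest peaks, the lower share was seen in R1 and not in both R2 libraries. Of the top 20000 peaks of each list, 605 and 618 lay on the arm in the naïve, 506 and 495 in the R1 and 669 and 583 in the R2 libraries (exact permutation p = 0.533). R1 counts were below and R2 counts on either side of the naïve ones. In the top 50000 peaks, the share was 3.77% and 4.15% in the naïve, 3.01% and 3.06% in the R1 and 3.17% and 3.46% in the R2 libraries. Over whole lists, the rest of chromosome 1 held 16942 and 11450 peaks in naïve cells and 32352 and 27467 in R1. In R2 it held 6109 and 6706. As a share of the list, both naïve values lay above all 4 resistant values there too. The lower share in resistant cells was therefore not particular to the arm.

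Peaks of the arm differed in width and place between cell types. They covered 3.32 and 2.17 Mb in the naïve, 8.81 and 7.13 Mb in the R1 and 0.865 and 0.994 Mb in the R2 libraries. Median widths were 351 and 331 bp in the naïve, 464 and 437 bp in the R1 and 301 and 296 bp in the R2 libraries, against 344, 329, 389, 382, 298 and 298 bp over all peaks of the same lists. The arm therefore held wider peaks than the genome in R1 above all. The widest single peak spanned 31525 bp in R1 replicate 2 and 4083 bp in R2 replicate 1. Peaks within 1000 bp of an annotated start made up 12.6% and 14.6% of arm peaks in the naïve, 9.34% and 9.54% in the R1 and 23.3% and 22.7% in the R2 libraries. In each list this share was lower than in the rest of chromosome 1, where it was 15.6%, 19.2%, 10.7%, 11.6%, 28.8% and 27.2%. Width, coverage and the promoter share moved with depth across the 3 cell types, and the part of depth in them was not tested.

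**Figure D1:**
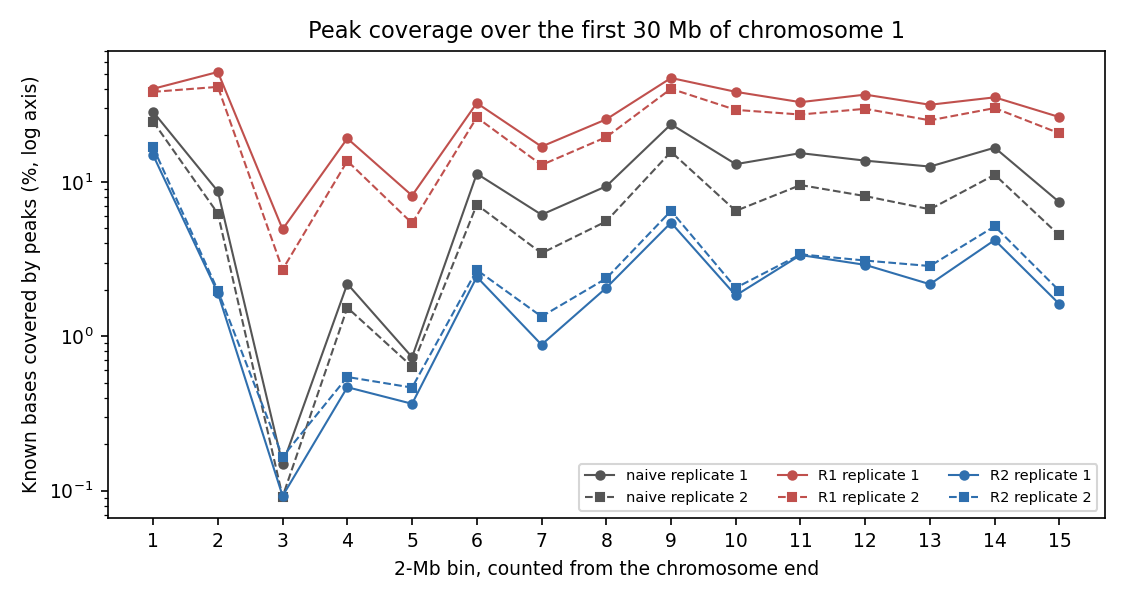
Share of known bases covered by peaks (percent, log axis) in each of the 15 bins of 2 Mb of the first 30 Mb, counted from the chromosome end, with a line for each library (circles and solid lines replicate 1, squares and dashed lines replicate 2). In bin 1 the libraries lie between 14.9% and 40.1%, and in bin 3, with 2 protein-coding genes, between 0.0915% and 4.93%.

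The first 2 Mb of the arm were densely covered in all libraries. Peaks covered 28.4% and 24.6% of this bin in the naïve, 40.1% and 38.3% in the R1 and 14.9% and 16.7% in the R2 libraries. Among 1474 bins of 2 Mb in the genome, these values ranked between place 14 and place 59 within the libraries. Most of the cover fell within chr1:900001-1400000, a stretch of 61.4% GC with 27 protein-coding starts, among them those of AGRN, TNFRSF18 and TNFRSF4. There, peaks covered on average 71.3% and 63.5% of each 100-kb window in the naïve, 84.6% and 82.9% in the R1 and 40.3% and 45.0% in the R2 libraries. Over all windows of the genome the same mean was between 0.882% and 7.96%. The number of peaks in the stretch ran the other way. It was 179 and 228 in the naïve, 123 and 127 in the R1 and 335 and 342 in the R2 libraries. The stretch held 15.8% and 14.2% of all arm peaks in R2 but 1.19% and 1.36% in R1.

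From 2 to 4 Mb the cell types lay farthest apart in cover, in percentage points, of the bins of the arm. Peaks covered 51.5% and 41.2% of this bin in R1, 8.69% and 6.23% in naïve cells, and 1.91% and 1.98% in R2. At 57.4% GC, the bin held place 2 by GC content among all 2-Mb bins of the genome. The bin from 4 to 6 Mb, with 2 protein-coding genes, was nearly bare, with 0.148% and 0.0915% in the naïve, 4.93% and 2.71% in the R1 and 0.0924% and 0.166% in the R2 libraries. The bin from 16 to 18 Mb was again dense, with 23.6%, 15.7%, 47.1%, 40.1%, 5.44% and 6.48% in the order naïve, R1, R2.

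Ranks were compared over regions found in every library. These were peaks of the first R2 list overlapped by at least 1 base by a peak of each other list, 36449 in the genome and 1188 on the arm. Each took the highest score of its overlapping peaks in a library, as a percentile among the 36449. The mean percentile of the arm was 52.1 and 51.4 in the naïve, 46.7 and 46.9 in the R1 and 47.4 and 47.1 in the R2 libraries. Both naïve libraries lay above all 4 resistant ones. The means were 51.8 ± 0.489 (SD, n = 2) and 47.0 ± 0.337 (SD, n = 4), a difference of -4.72 percentile points (exact permutation p = 0.133, the smallest possible). Medians were 55.1 and 54.1, 45.3 and 48.1, and 41.5 and 51.3, a difference of -8.04 points (exact permutation p = 0.133) that was -4.13 without R2 replicate 1.

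Over all shared regions, R1 and R2 were low in unlike places. In the first 2 Mb (404 regions, 34.0% of the arm's), the mean percentile was 62.3 and 60.0 in the naïve, 59.6 and 62.2 in the R1 and 46.6 and 50.1 in the R2 libraries. R1 overlapped naïve cells there, and R2 lay below both. From 2 to 30 Mb (784 regions), the mean was 46.9 and 47.0 in the naïve, 40.0 and 39.0 in the R1 and 47.9 and 45.6 in the R2 libraries. Here R1 lay below and R2 on both sides of the naïve values. On the rest of chromosome 1 (3252 regions), the mean was 53.1 and 50.9 in the naïve, 46.2 and 45.4 in the R1 and 52.5 and 52.4 in the R2 libraries, so R1 was also lower than naïve cells there. Taking the rest of chromosome 1 off the arm gave -0.957 and 0.478 points in the naïve, 0.480 and 1.52 in the R1 and -5.02 and -5.25 in the R2 libraries. This contrast of naïve and resistant libraries did not pass the test (exact permutation p = 0.8).

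Many R1 peaks were wide enough to span several of these regions, which then shared a score. Of the 1188 regions, 711 and 691 shared their R1 peak with another region, against 532 and 462 in naïve cells and 0 and 247 in R2. The 0 of R2 replicate 1 was fixed in advance, because the regions are its own peaks. The comparison was therefore repeated, after the data had been seen, on regions whose peaks had summits within 250 bp of each other in all libraries, called matched summits below (14400 in the genome, 388 on the arm). With matched summits the arm's mean percentile was 51.6 and 52.8 in the naïve, 44.7 and 44.9 in the R1 and 48.4 and 48.8 in the R2 libraries. The order of the cell types remained naïve, R2, R1. In the first 2 Mb, 44 such regions had means of 60.4 and 64.8, 53.5 and 55.4, and 59.8 and 57.3, so that there R1 and no longer R2 was lowest. From 2 to 30 Mb, 344 such regions had means of 50.4 and 51.3, 43.6 and 43.6, and 46.9 and 47.7. In both stretches all R1 and R2 libraries lay below both naïve ones, so the unlike places of R1 and R2 were not seen with matched summits. The arm less the rest of chromosome 1 was -4.07 and 0.481 in the naïve, -3.27 and -2.99 in the R1 and -3.31 and -3.50 in the R2 libraries (exact permutation p = 0.667). The gap of R2 to naïve cells in the first 2 Mb was smaller with matched summits than without.

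**Figure D2:**
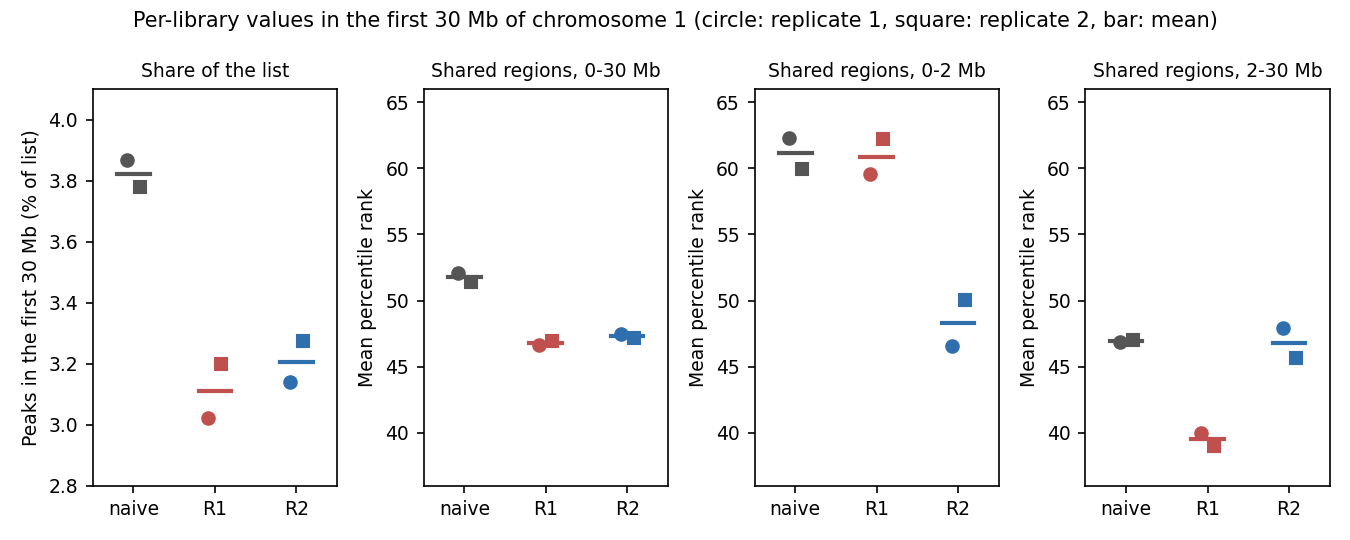
Values of each library in the first 30 Mb (circle replicate 1, square replicate 2, bar the mean of 2): the share of the list in percent, and the mean percentile rank of shared regions over the whole stretch, its first 2 Mb and the rest. The axes do not start at 0; both naïve libraries lie above the 4 resistant ones in the first and second panels, R2 is lowest in the first 2 Mb (46.6 and 50.1) and R1 from 2 to 30 Mb (40.0 and 39.0).

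Within the arm, ranks were followed in bins of 2 Mb, 14 of which held at least 5 shared regions. In 2 of these 14, all 4 resistant libraries had a lower median than both naïve ones, and in 0 a higher one. Over the genome this held for 6.75% of 904 bins (lower) and 29.8% (higher). From 16 to 18 Mb (149 regions), the median percentile was 58.1 and 51.8 in the naïve, 37.5 and 34.7 in the R1 and 41.5 and 51.3 in the R2 libraries. From 20 to 22 Mb (96 regions), it was 34.5 and 35.2, 18.6 and 20.2, and 30.3 and 24.0. Both bins were lowest in R1. The bin from 12 to 14 Mb had the lowest difference of resistant and naïve medians, -18.2 points, but its naïve values of 71.9 and 38.1 lay far apart. The bin from 8 to 10 Mb had the highest, 13.4 points, with medians of 23.0 and 35.2 in the naïve, 32.5 and 38.1 in the R1 and 41.5 and 58.0 in the R2 libraries. The bins from 22 to 24 Mb and from 26 to 28 Mb followed with 5.27 and 3.16 points. With the medians averaged over the libraries of each cell type, R1 lay below naïve cells in 11 of 14 bins of the arm and in 386 of 904 of the genome. For R2 the average was lower in 7 of 14 and in 199 of 904, with no regard to overlap of the libraries.

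**Figure D3:**
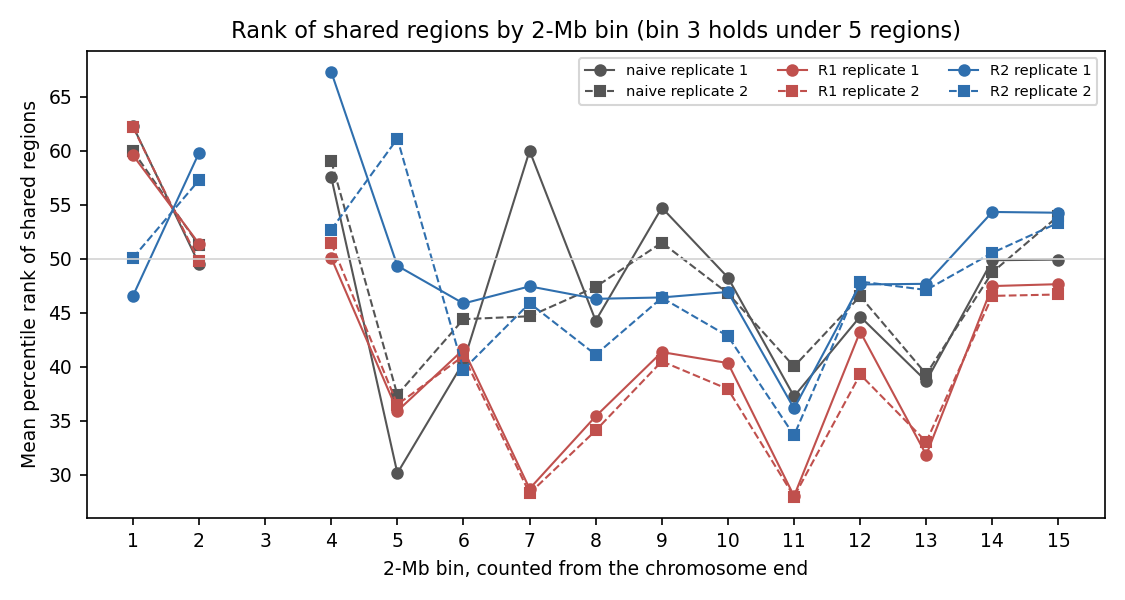
Mean percentile rank of shared regions (y axis, rank among all shared regions of the genome) in each 2-Mb bin counted from the chromosome end (x axis), with a line for each library. R1 lies below naïve cells in most bins, and in the bin from 24 to 26 Mb R1 sits at 31.8 and 33.0, naïve cells at 38.7 and 39.3, and R2 at 47.7 and 47.1.

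Single regions were tested with limma across all 36449 shared regions (Benjamini-Hochberg adjusted p under 0.05). No region of the arm or of the genome passed for the resistant cell types together against naïve cells (0.0% higher and 0.0% lower over the genome). At an unadjusted p under 0.05, 57 arm regions were higher and 146 lower, which is 4.80% and 12.3% of 1188, beside 11.8% and 12.0% over the genome. For R1 against naïve cells, 16 arm regions were called higher and 30 lower, which is 1.35% and 2.53% of 1188, beside 2.66% and 3.15% over the genome. Neither share of the arm exceeded that of the genome. The number of calls depended on single libraries. It fell to none or nearly none without any single naïve or R1 library, and rose without either R2 library. Without R2 replicate 1 and R2 replicate 2, more regions were shared, 51274 and 48637, with 1782 and 1605 on the arm. Those counts are therefore not over the same regions.

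The regions called higher in R1 lay under wide R1 peaks. Of the 16, 15 shared an R1 peak with another region and 0 had matched summits. Of the 5 with the largest difference, 3 lay in an intron of DISP3, which encodes a patched-domain membrane protein, under a single R1 peak of 9450 bp in replicate 1 and 9086 bp in replicate 2. At chr1:11518877-11519303 the percentile was 19.4 and 7.28 in the naïve, 93.3 and 96.0 in the R1 and 1.91 and 34.0 in the R2 libraries (R1 minus naïve 81.3 ± 13.5 points (SE), limma adjusted p = 0.0322). Another, chr1:1373248-1373488, lay 1899 bp from the start of AURKAIP1, with 4.90 and 17.5, 92.2 and 88.7, and 8.03 and 24.0 (79.3 ± 11.0, adjusted p = 0.0284). Its R1 peaks measured 5623 and 5506 bp, against 842 and 498 bp in naïve cells. The remaining one, in an intron of AHDC1, reached 83.3 and 89.0 in R1 under peaks of 7521 and 7437 bp. The score of such a peak is set at its highest point, which need not lie in the region. No region of the arm was called higher in R1 with matched summits.

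Regions called lower in R1 were also found with matched summits. Of the 30, 15 had matched summits, and the fit over matched summits called 15 arm regions lower (3.87% of 388, beside 4.7% over the genome) and 0 higher (beside 3.47%). Of these 15, 13 were called in both fits. All 15 had a negative difference when any single library was left out. This was fixed in advance, because both R1 libraries lay below both naïve ones in all 15. The number of calls in this fit fell without any single naïve or R1 library, in most cases to none or nearly none. It rose without either R2 library. R1 was also the deepest cell type, and the part of depth in these ranks was not tested.

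Of the largest drops, 3 are given here, and none of the 15 lay at a promoter. Upstream of ECE1, which encodes an endothelin-converting enzyme, the region chr1:21324315-21324897 (34259 bp from the start) ranked at 86.1 and 87.7 in the naïve, 11.1 and 17.7 in the R1 and 44.3 and 47.7 in the R2 libraries. R1 was lower than naïve cells by -72.5 ± 10.2 points (SE, adjusted p = 0.0206), with R2 between them. In an intron of EPHB2, an ephrin receptor of axon guidance, chr1:22832067-22832316 ranked at 66.6 and 82.7, 2.26 and 7.18, and 32.5 and 29.8 (-69.9 ± 9.96, adjusted p = 0.0206). This region holds the summit with 2 AP-1 matches printed above. In an intron of DHRS3, a retinaldehyde reductase, chr1:12604414-12604638 ranked at 72.1 and 63.3, 3.76 and 4.86, and 49.6 and 29.8 (-63.4 ± 10.6, adjusted p = 0.0236). In each of the 3, both R1 libraries lay below all other libraries.

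Further regions of this kind lay near TNFRSF1B, EPHA2 and CDA. The one 5023 bp upstream of TNFRSF1B, a tumour necrosis factor receptor, ranked at 73.6 and 71.3 in the naïve, 12.0 and 8.47 in the R1 and 54.4 and 42.3 in the R2 libraries (chr1:12161816-12162121, -62.2 ± 10.3, adjusted p = 0.0236). A pair lay upstream of EPHA2, an ephrin receptor tyrosine kinase. The farther, at 25860 bp, ranked at 77.7 and 85.4, 13.8 and 29.0, and 58.9 and 57.3 (-60.2 ± 10.9, adjusted p = 0.0265). The nearer, at 8231 bp, ranked at 55.8 and 53.5, 14.8 and 9.80, and 63.1 and 52.7 (-42.3 ± 9.98, adjusted p = 0.0460). R2 overlapped naïve cells at the nearer one. In an intron of CDA, cytidine deaminase, chr1:20613780-20614192 ranked at 66.6 and 60.2, 6.24 and 2.90, and 49.6 and 57.3. There R1 was lower than naïve cells by -58.8 ± 9.77 points (adjusted p = 0.0236) and lower than R2 by -48.9 points (adjusted p = 0.0457).

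The rest of the 15 had differences between -62.6 and -10.7 points. The region with the difference of -62.6, chr1:631355-631833, lies in a copy of mitochondrial DNA described below. That of -10.7, in an exon of a non-coding transcript 11140 bp from the start of ATP5IF1, stayed at a high rank throughout, with 93.0 and 97.8 in the naïve, 84.7 and 84.7 in the R1 and 94.5 and 93.9 in the R2 libraries. Others lay 29449 bp upstream of EPB41 (-54.4), 10827 bp from GPR3 (-45.6), 36237 bp from RCC2 (-45.1), and in introns of PADI1 (-43.6), DHRS3 (-41.2) and FAM131C (-33.1). Of the 15, 0 lay within 1000 bp of a protein-coding start, against 166 of all 388 matched regions of the arm.

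**Figure D4:**
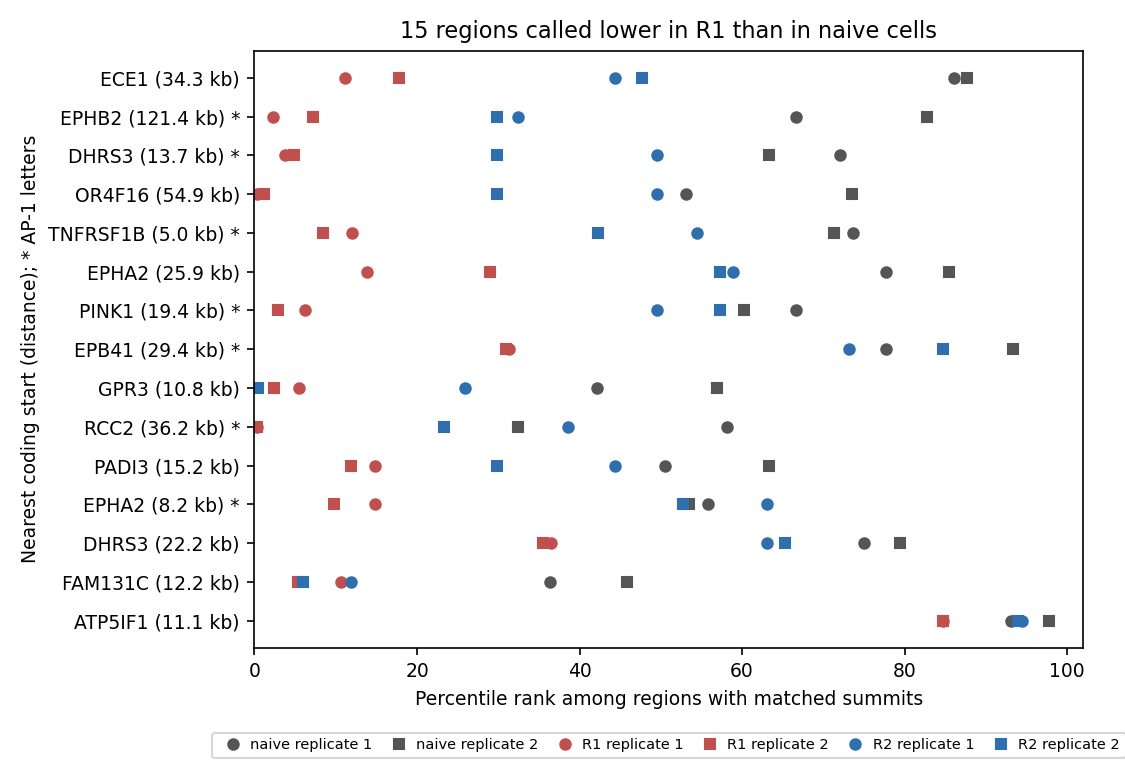
Percentile rank (x axis, among 14400 regions with matched summits) of the 15 regions called lower in R1 than in naïve cells, named by the nearest coding start and its distance, with a point for each library (circle replicate 1, square replicate 2) and a star where the summit window holds AP-1 letters. The R1 points lie left of both naïve points in every row.

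AP-1 letters were frequent under these summits. The window within 50 bp of the summit held TGANTCA in 7 of the 15 (46.7%), beside 29 of all 388 matched arm regions (7.47%). Over the genome, it held them in 194 of 677 regions called lower in R1 (28.7%), in 3 of 500 called higher (0.6%) and in 825 of all 14400 (5.73%). A higher share in regions lower in R1 was seen on the arm and over the genome alike. Of the 15, 0 lay within 1000 bp of a protein-coding start, against 166 of the 388. Shares away from starts were not counted, so distance from a start and lower rank in R1 cannot be told apart here. The CTCF core was in 3 of the 15 and in 79 of 388, and the letters GGGCGG (SP1) in 1 of the 15 and in 134 of 388. CACGTG (E-box) was in 1 of the 15, and CCGGAAG (ETS) and NRF1 letters in 0. Matches are letters only, and binding was not measured.

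With matched summits, 5 arm regions were lower in the resistant cell types together (1.29% of 388, beside 1.34% over the genome) and 0 higher (beside 1.5%). They were the ECE1, EPHB2 and DHRS3 regions above (-56.7 ± 8.87, -56.7 ± 8.63 and -45.7 ± 9.18 points, adjusted p = 0.0373, 0.0364 and 0.0499), the FAM131C intron and a region 8867 bp upstream of TNFRSF8. The last ranked at 27.3 and 32.4 in the naïve, 7.80 and 7.18 in the R1 and 0.490 and 2.26 in the R2 libraries (-25.4 ± 4.98, adjusted p = 0.0484), lower in all 4 resistant libraries. The number of such calls fell whichever single library was left out, in most cases to none. In the fit over all shared regions, the largest differences of the resistant cell types among regions whose groups do not overlap lay in introns of ZBTB17, ECE1 and EPHB2 (lower) and near NOC2L, AGRN and IFFO2 (higher), and none passed.

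For R2 against naïve cells, 10 arm regions were called higher and 16 lower in the fit over all shared regions (0.842% and 1.35% of 1188, beside 1.39% and 1.88% over the genome). All 16 lower regions shared an R1 peak with another region, and 10 of them lay in the first 2 Mb. In an intron of SRM, the spermidine synthase gene, chr1:11058739-11059312 ranked at 98.4 and 98.9 in the naïve, 94.7 and 95.5 in the R1 and 8.03 and 24.0 in the R2 libraries (-82.7 points, adjusted p = 0.0187). Peaks there measured 1805 and 1534 bp in naïve cells and 574 and 541 bp in R2, and the region lies 832 bp from the start. Regions of AGRN, ARHGEF19 and INTS11 and one 7016 bp upstream of CALML6 showed the same order, also under wide naïve and R1 peaks. With matched summits, 0 arm regions were called higher and 0 lower by limma (0.0% and 0.0% over the genome), and 19 were higher and 50 lower at an unadjusted p under 0.05, which is 4.90% and 12.9% of 388, beside 9.62% and 9.54% over the genome. The 26 calls fell to none without any single naïve or R1 library, and rose without either R2 library, where more regions were tested.

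Higher ranks in R2 were found at E2F2 and TRNP1. The region chr1:23531301-23531551 lies 136 bp upstream of the start of E2F2, a cell cycle transcription factor. It ranked at 23.0 and 17.5 in the naïve, 36.3 and 45.0 in the R1 and 79.1 and 86.3 in the R2 libraries (62.5 ± 10.8, adjusted p = 0.0394). All 3 cell types were separate there. The region chr1:26991344-26991710, which holds AP-1 letters, lies 2175 bp upstream of TRNP1, a nuclear protein of neural progenitors. It ranked at 7.22 and 17.5, 9.19 and 7.71, and 73.2 and 72.2 (60.3 points, adjusted p = 0.0314), with both R2 libraries above the other 4. Both regions had matched summits, and neither difference from naïve cells was called in that fit. The other 3 of the 5 largest lay in introns of AGRN and RPS6KA1 and at chr1:821965-822178.

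R1 and R2 differed from each other at more regions. The fit over all shared regions called 55 arm regions higher in R1 and 75 lower (4.63% and 6.31% of 1188, beside 5.25% and 5.98% over the genome). All 55 higher regions shared an R1 peak with another region and 36 lay in the first 2 Mb. The largest differences lay at TMEM52 and CALML6, at SRM, and in the DISP3 intron. Of the 75 lower, 49 had matched summits, and 5 were called with matched summits (1.29% of 388, beside 2.68% over the genome; 0 higher, beside 0.694%). The largest of these was the satellite-like peak chr1:791441-791669 in an intron of LINC01409. It ranked at 30.3 and 53.5 in the naïve, 3.43 and 15.5 in the R1 and 97.5 and 96.3 in the R2 libraries (R1 minus R2 -87.4 ± 12.2, adjusted p = 0.0261). Its sequence above is a run of GGAAT units, where reads cannot be placed with certainty. The others were the TRNP1 region (-40.7 ± 7.37, adjusted p = 0.0371), the CDA and EPB41 regions, and an intron of C1orf127 (-35.2 ± 7.25, adjusted p = 0.0496). The 130 calls fell to none or nearly none without either R1 library, and rose without either R2 library, where more regions were tested. The 5 with matched summits fell whichever single library was left out, in most cases to none.

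Promoters with a peak in all 6 libraries were about as frequent on the arm as on the rest of chromosome 1. Of 412 protein-coding genes with a start in the first 30 Mb, 344 and 320 had a promoter peak in the naïve, 375 and 371 in the R1 and 279 and 297 in the R2 libraries. This is 83.5%, 77.7%, 91.0%, 90.0%, 67.7% and 72.1%, against 71.5%, 67.8%, 84.7%, 83.0%, 61.1% and 62.2% of all 20033 genes. On the rest of chromosome 1 it was 78.0%, 74.6%, 86.8%, 84.2%, 68.0% and 68.8%, below the arm in every library but R2 replicate 1. In all 6 libraries, 261 (63.3%) had one, beside 54.7% of all genes and 63.4% of those on the rest of chromosome 1. In 35 genes no library had one. The share open in all libraries varied along the arm. It was 45 of 49 genes from 0 to 2 Mb, 35 of 74 from 2 to 10 Mb, 70 of 137 from 10 to 20 Mb, and 111 of 152 from 20 to 30 Mb. A peak in both R1 libraries and in no other was found for 19 genes (4.61%, beside 7.32% of all genes). R1 had the longest lists and the highest background rate, and the part of depth in this count was not tested.

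Among promoters open in all 6 libraries, the median rank of those on the arm was lowest in R1. Their median percentile among the 10950 such promoters of the genome was 54.4 and 55.6 in the naïve, 43.6 and 45.2 in the R1 and 48.2 and 51.2 in the R2 libraries. The median difference from naïve cells was -7.22 points in R1 and -4.65 in R2. Over the genome it was -0.745 and 0.00342, and on the rest of chromosome 1 -4.40 and -0.888. Of the 412 genes, 245 had a shared region within 1000 bp of the start. For R1 against naïve cells 0 of these had a region called higher and 1 lower, for R2 against naïve cells 1 and 7, and for R1 against R2 12 and 10. The same count was not made for all promoters of the genome. Over all shared regions of the genome, the shares called were 2.66% and 3.15%, 1.39% and 1.88%, and 5.25% and 5.98% in the same order. No promoter was called for the resistant cell types together.

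Of 18 genes discussed as 1p genes of neuroblastoma, 10 had a promoter peak in all 6 libraries. Values that follow are percentiles within the whole list of each library. MIIP, an inhibitor of cell migration, ranked at 99.6 and 99.6 in the naïve, 99.2 and 99.5 in the R1 and 97.3 and 96.5 in the R2 libraries. CAMTA1 ranked at 98.4 and 97.9, 97.9 and 98.1, and 88.3 and 96.8. ARID1A ranked at 98.1 and 96.3, 98.3 and 98.5, and 93.7 and 93.1. These promoters lay in the top part of every list. The kinesin gene KIF1B (84.7 to 98.4), the ubiquitin ligase gene UBE4B (88.9 to 98.8) and the BMP antagonist gene NBL1 (75.2 to 97.6) were also open throughout, as were RERE, a transcriptional corepressor (60.1 to 96.2), and SLC25A33, a mitochondrial nucleotide carrier (60.1 to 96.4).

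The other members were open in some libraries only or at low rank. CHD5 had a promoter peak in R1 alone, at 79.2 and 80.4. The same held for the p53 relative TP73 (89.1 and 94.3), the junction protein gene AJAP1 (64.0 and 42.3) and the PI3-kinase subunit gene PIK3CD (85.2 and 61.9). These were 4 of the 18 (22.2%), beside 4.61% of genes on the arm and 7.32% of all genes. R1 had the longest lists and the widest peaks, and the part of depth in these peaks was not tested. CASZ1 had a peak in 5 libraries, at 67.3 and 54.1 in the naïve, 93.2 and 92.1 in the R1 and 60.1 in the R2 libraries replicate 1. DFFA, the inhibitor of a caspase-activated nuclease, lacked one in R2 replicate 1. PRDM16 had one in 4 libraries, and the death receptor gene TNFRSF25 in 3. ERRFI1, a brake on EGF receptor signalling, ranked at 29.0 and 25.9 in the naïve, 95.3 and 95.0 in the R1 and 32.0 and 75.2 in the R2 libraries. The transcription factor gene RUNX3 ranked at 60.6 and 64.1, 96.6 and 96.2, and 78.9 and 60.5. The lists differ in length, so ranks were also taken among promoters open in all libraries. Among promoters open in all libraries, ERRFI1 ranked at 0.826 and 1.42, 11.4 and 15.3, and 5.09 and 24.6, and RUNX3 at 3.90 and 8.76, 22.7 and 25.4, and 32.5 and 13.3. On that scale both were lowest in naïve cells. Within the whole lists this held for ERRFI1, while RUNX3 in R2 replicate 2 (60.5) lay just below both naïve values. Of the 18 genes, 9 had a shared region at the promoter and 0 of these were called in any contrast.

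**Figure D5:**
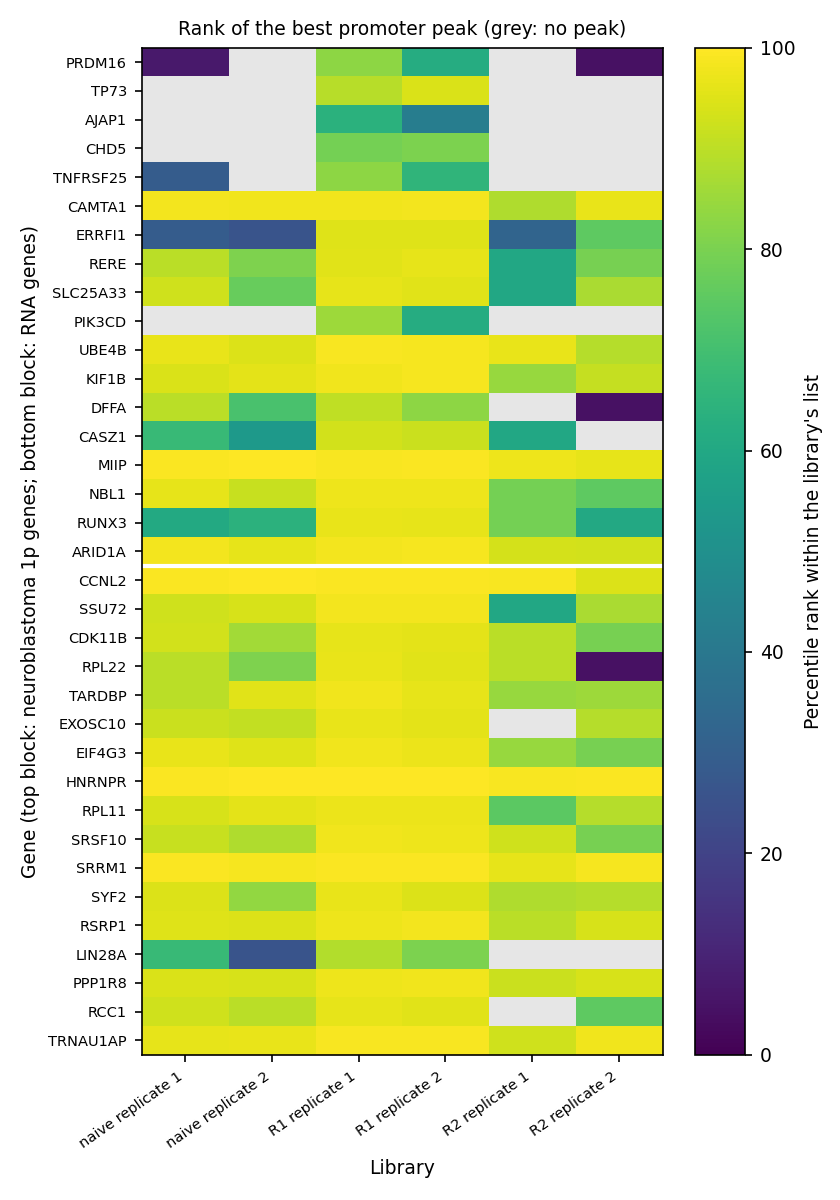
Percentile rank within the list of each library (colour) of the best promoter peak of 18 neuroblastoma 1p genes (top block) and 17 RNA genes (bottom block), ordered by position, with 6 library columns. Grey marks no peak within 1000 bp of the start; CHD5, TP73, AJAP1 and PIK3CD are grey outside R1, and HNRNPR is between 98.8 and 99.7.

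Most genes of RNA processing on the arm had a promoter peak in every library. These were listed because indisulam acts on a splicing factor. Of 17, 14 had a promoter peak in all 6 libraries. HNRNPR, an RNA-binding protein of the spliceosome, ranked at 99.5 and 99.6 in the naïve, 99.7 and 99.7 in the R1 and 98.8 and 99.5 in the R2 libraries. The splicing coactivator gene SRRM1 (96.3 to 99.5) and the cyclin gene CCNL2 (94.5 to 99.6) were close to it. TARDBP (84.7 to 97.7), SRSF10 (79.5 to 97.8), SYF2 (83.7 to 96.6) and CDK11B (79.5 to 96.5) also had a peak in every library. RPL22, a ribosomal protein gene, ranked at 89.8 and 80.7, 96.6 and 95.4, and 89.7 and 4.38, the last far below its replicate. EXOSC10 and RCC1 lacked a peak in R2 replicate 1, and LIN28A, a let-7 inhibitor of stem cells, in both R2 libraries. Of the 17, 14 had a shared region at the promoter and 0 were called in any contrast.

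Other groups were open in most libraries, with few calls. Of 16 chromatin genes, 13 had a promoter peak in all 6 libraries, and 1 region was called, at PHF13 for R1 below R2 (-27.1 ± 6.68, adjusted p = 0.0488). KDM1A, a histone demethylase, ranked at 97.2 and 71.3, 97.5 and 97.4, and 74.6 and 85.2 within the lists, and PRDM2 at 92.7 and 41.1, 95.8 and 95.4, and 15.6 and 75.2. In both, the 2 naïve libraries lay far apart. Of 15 growth and cell cycle genes, 13 were open in all 6. Besides E2F2, a region at ID3, an inhibitor of DNA binding by bHLH factors, was called lower in R1 than in R2, with 79.5 and 89.4 in the naïve, 67.6 and 57.4 in the R1 and 95.1 and 92.1 in the R2 libraries (-31.1 ± 5.71, adjusted p = 0.0243). The promoter of EPHA2, whose upstream regions were lower in R1, ranked among open promoters at 43.8 and 52.1 in the naïve, 10.9 and 16.1 in the R1 and 15.3 and 24.6 in the R2 libraries.

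Of 17 metabolic and mitochondrial genes, 15 were open in all 6 libraries. A region at ATP13A2, a lysosomal transporter, was lower in R2 than in naïve cells, with 90.1 and 82.2, 85.3 and 81.5, and 30.3 and 34.0 (-54.1 ± 8.20, adjusted p = 0.0327). It was also higher in R1 than in R2 (51.3 ± 8.20, adjusted p = 0.0191). The summits of this region were not matched. SLC2A5, a fructose transporter gene, had a promoter peak in no library. PINK1, a mitochondrial kinase, ranked within the lists at 87.5 and 64.1, 94.8 and 93.6, and 15.6 and 32.5, lowest in R2. The lists differ in length and are shortest in R2, so this order need not hold among promoters open in all libraries. Of 11 cell death and TNF receptor genes, 5 were open in all 6, TNFRSF9 in none, and a region at CASP9 was lower in R1 than in R2 (-13.7 ± 3.08, adjusted p = 0.0392). TNFRSF1B ranked at 95.6 and 80.7, 96.6 and 95.1, and 74.6 and 32.5. Of 17 neural genes, 10 were open in all 6, and GABRD and SLC45A1 in R1 alone. A region at AGRN, agrin of the synapse, was lower in R2 than in naïve cells (-19.5 ± 3.09, adjusted p = 0.0344). Of 21 genes of other tissues, 6 were open in all 6, with PLA2G2D and CELA2A in R1 alone and CORT in R1 replicate 1 alone. For the last group, 3 genes had a shared region and 0 were called.

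The strongest peaks of the arm lay over a copy of mitochondrial DNA in the nucleus. The stretch chr1:629081-634924 is 98.5% identical to the mitochondrial genome over 5846 bp. Its strongest peak, chr1:633832-634285 in naïve replicate 1, held 3623 and 3101 tags in the naïve, 3841 and 3466 in the R1 and 2027 and 1966 in the R2 libraries, the highest of the arm in each library. A second, chr1:629774-630657 in naïve replicate 1, held 1925 and 1447, 2055 and 1838, and 949 and 932. The printed summit cannot be told apart from mitochondrial DNA by its letters. The next strongest peak lay in an intron of MEGF6, with 234 and 163, 908 and 724, and 154 and 164 tags, at a percentile between 99.8 and 99.9 of shared regions in every library.

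Long stretches without any peak lay in a gene-poor stretch and in gene families. In naïve replicate 2, no peak was called from chr1:4213199 to 5749171, 1536 kb that hold the start of AJAP1. Over all 6 lists together, the longest bare stretch was chr1:4939680-5333991 (394 kb), which holds no protein-coding start. In R2 replicate 1, chr1:12620154-13584350 (964 kb, of which 50 kb are unknown bases) had no peak and holds 31 protein-coding starts, most of the PRAMEF and HNRNPCL families. Of 26 genes of these families, 0 had a promoter peak in each naïve and R2 library, 3 in R1 replicate 1 and 1 in R1 replicate 2. The copies are nearly identical, so that these counts are uncertain.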

How the data were processed

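Nuclei of 6 SK-N-AS-derived cultures were treated with Tn5 and sequenced in pairs. As the methods and submitters' processing notes give it, the authors aligned with BWA 0.7.12-r1039, marked duplicates with Picard 1.65, filtered with SAMtools 1.3.1, dropped mitochondrial reads, moved read ends by +4 and -5 bp, and ran MACS2 2.2.7.1 on each library alone (q of 0.01, extension 200, shift 100), with BEDTools 2.25.0 also named. Each deposited peak carries a fold enrichment (a ratio over background), a −log10 p-value and a −log10 q-value, as MACS2 wrote them. The methods name hg19 and the notes hg19 and hg38. Peak ends run up to hg38 chromosome ends, so hg38 with GENCODE 44 was used.

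Peaks were ranked within a list by the −log10 p the authors deposited. The background rate and tags of a peak were recovered from the common step of the deposited fold values. Depth in reads is not given in the sources used here. Shared regions were ranked and tested with limma 3.58.1 (R 4.3.3, eBayes with trend, 3 residual degrees of freedom, all 6 libraries in 1 fit, Benjamini-Hochberg over all regions). Values with 1 number per library had an exact two-sided permutation test (SciPy 1.17.1). The scripts were tested on simulated data. Regions and listed genes were named by a fixed rule: the 5 largest called differences each way in each contrast, the 3 highest ranks, the 3 highest and 3 lowest bins, all genes of the neuroblastoma and RNA lists, and in other lists the 4 largest promoter differences and genes open in no library or in 1 group. Regions called with matched summits, promoters with a called region and examples of members inside a list are named besides. Members, lists and rules were chosen with earlier results of these data known. Mitochondrial copies were found with BLAST 2.17.0. Some marker genes and a repeat sequence are not reported here.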

Additional observations from a re-analysis of the deposited data

Results flagged for a closer look

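In 3 bins of the arm, R1 and R2 lay on opposite sides of naïve cells, with both libraries of each beyond both naïve libraries. The values are mean percentiles of shared regions. From 22 to 24 Mb (72 regions), naïve cells had 44.6 and 46.5, R1 43.2 and 39.3, and R2 47.6 and 47.9, a difference from naïve cells of -4.32 points in R1 and 2.17 in R2. From 24 to 26 Mb (56 regions), the values were 38.7 and 39.3, 31.8 and 33.0, and 47.7 and 47.1, differences of -6.55 and 8.40. From 26 to 28 Mb (117 regions), they were 49.8 and 48.7, 47.5 and 46.5, and 54.3 and 50.5, differences of -2.29 and 3.14. The difference between R1 and R2 in these bins was not tested. No library stood apart by Dixon's criterion in the 7 quantities checked over the 4 resistant libraries.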

How the results depend on the processing

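The direction of the share of peaks (-0.663 points, -0.707 to -0.618 with 1 library left out), of the share of the top 20000 (-0.241, -0.418 to -0.128) and of the median rank (-8.04, -9.52 to -4.13) held under all alternatives run, and the number of promoters open in all libraries was 261 to 280. At a reach of 250 bp it was 227. Bins lower in all resistant libraries numbered 2 of 14, 1 of 6 with bins of 5 Mb, and 2 to 5 with 1 library left out. Counts of called arm regions were not stable, and the cause was not tested. For the resistant cell types together, the count of 0 became 9 with merged regions, 21 with normal scores, 51 on log2 recovered tags, 14 with ranks within GC bins, 30 without the trend and 5 with matched summits. Over the genome, merged regions gave 446 higher and 383 lower of 24147, and matched summits 216 and 193 of 14400. Of 36449 regions, normal scores called 628 and 559, log2 tags 1214 and 1150, GC bins 443 and 438, and no trend 706 and 647. For R1 minus naïve, 46 became 2 where a fraction of 0.5 of each region had to overlap, 124 on log2 tags and 15 with matched summits. Over the genome, these gave 120 higher and 177 lower of 3629, 2290 and 2668 of 36449, and 500 and 677 of 14400. For R2 minus naïve, 26 became 0 at that overlap, 0 with merged regions, 45 on log2 tags, 45 without the trend, 10 without the first 2 Mb and 0 with matched summits. Over the genome, that overlap gave 40 higher and 15 lower of 3629. Log2 tags gave 1113 and 831 and no trend 785 and 835 of 36449. Merged regions and matched summits gave 0 and 0 over the genome. For R1 minus R2, 130 became 85 at a stricter q, 2 at that overlap, 7 with merged regions, 254 on log2 tags, 80 without the first 2 Mb and 5 with matched summits. Over the genome, the stricter q gave 1336 higher and 1491 lower of 25756, and that overlap 113 and 213 of 3629. Merged regions gave 112 and 536 of 24147, log2 tags 2959 and 4340 of 36449, and matched summits 100 and 386 of 14400. With 1 library left out, the 4 counts ran from 0 to 76, 0 to 98, 0 to 112 and 0 to 220, where a lone library was assumed to vary like the others. The run without the first 2 Mb and matched summits were chosen after seeing the data. Of single named regions, 479 values kept their side of the threshold, 195 lost it and 50 gained it, and none changed sign. Merged regions were left out of this count. The regions were picked by their differences in these same libraries, so a kept sign was largely fixed in advance.

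Replicate numbers did not pair the libraries, as deviations of same-numbered libraries correlated at 0.0205, -0.0199 and 0.0102. With the replicate block, 0 arm regions were called for the resistant cell types together and 0 for R1 minus naïve, beside 0 over the genome in both. For R2 minus naïve, 4 arm regions were called (22 higher and 177 lower over the genome). For R1 minus R2, 76 arm regions were called (1381 and 1382 over the genome). With the replicate block and matched summits, the 4 counts were 0 (5 without the block), 10 (15), 0 (0) and 1 (5). The replicate block left the shares at -0.663 and -0.241 points and the median at -8.04 (exact permutation p = 0.222, 0.667 and 0.222). With 3 residual degrees of freedom and few distinct scores in the short lists (46 and 49 on the arm in R2), small differences were not detectable at this depth.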
